A study of Mus musculus with 11 samples.

Results

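The chromatin contacts of wild-type mouse forelimb were compared with those of wild-type forebrain, both from embryos of embryonic day 9.5. The members were all 88410 pairs of 10 kb bins of chromosome 1 from 120200001 to 124400000 (mm9), a region of 420 bins around the homeobox gene En1. They came from 6 of the 11 libraries of a capture Hi-C study of the locus of the lncRNA Maenli. The labels give 3 libraries of forelimb and 3 of forebrain, all of the strain c57bl6.J X 129S6.sv, while the titles of the forelimb libraries carry the tag CD1. The deposited contact map of each tissue merges its 3 libraries, so no value below has a replicate check.

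Capture Hi-C crosslinks, cuts and religates chromatin, and enriches the ligation products of a chosen region, so that a contact counts how often a pair of fragments lay close together. The maps pool the cells of a dissected tissue, and more cells with a contact cannot be told apart from a more frequent contact in each cell. The other groups used here for orientation were wild-type midhindbrain boundary (3 libraries) and forelimb with a stop cassette insertion (2 libraries, labelled as mutant), of the same strain entry and embryonic day. The labels give neither the insertion site of the cassette nor its zygosity.

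Chromatin folds into topologically associating domains, within which sequences touch often, and which are separated by boundaries that few contacts cross. En1 encodes a transcription factor that patterns the ventral limb ectoderm and the boundary of midbrain and hindbrain, and its distant regulatory sequences reach it by such contacts. In RefSeq's order of genes (GRCm38.p6) En1 is the only protein-coding gene between Marco, a scavenger receptor of macrophages, and Insig2, a regulator of sterol synthesis. Gli2, a zinc finger factor of hedgehog signalling, and Inhbb, the beta-B subunit of activins and inhibins, lie on the side of Marco, and Ddx18, an RNA helicase, lies on the side of Insig2. No annotation of the maps' build was used here, so no bin is assigned to a gene.

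The forelimb map held 8823849 contacts and the forebrain map 9489482. Of these, 5471344 and 5350268 joined bins 30 kb or more apart. The share of contacts inside a single bin was 18.9% in forelimb and 25.1%, 24.7% and 25.8% in forebrain, midhindbrain boundary and stop-cassette forelimb, so the wild-type forelimb map stood apart from the other three in this measure. The share of contacts that each bin took part in differed little between forelimb and forebrain, with a standard deviation of 0.10 over bins on the log2 scale and 0 of 420 bins differing by 25% or more. All levels below are observed over expected contacts, and 1 is the average for that distance. The expectation keeps the total contacts of each distance and weights each bin by a factor taken from the balanced signal. A log2 difference compares these levels between the maps, and its interval covers counting error only. The p-values compare the reads of the merged maps, not the tissues.

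Contact levels summed over whole intervals between boundaries differed little between the maps. Insulation scores compare the signal across each bin edge, in a square of 200 kb, with its mean over the region, and their minima placed 7 boundaries in the forelimb map. These define 8 intervals, of 310 to 930 kb. The boundary at 121910001 barely passed the depth required (0.202 against 0.2). It was placed in both forelimb maps, while both brain maps had one at 122050001 instead. Inside the intervals the forelimb and forebrain levels differed by at most 0.06 on the log2 scale. These sums rest largely on close pairs, whose total at each distance is fixed in each map, which holds the value near 0. Stop-cassette forelimb over midhindbrain boundary, with 25.4% of its 100 kb blocks called, differed by at most 0.02 inside the intervals. The inside values therefore say little about likeness of the tissues. Between intervals, 3 of 28 pairs differed by more than 10%. With the boundaries of the forebrain map 2 pairs did.

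Of these 3 pairs, contacts between the second interval (120670001-120980000) and the sixth (122470001-123080000) had a level of 1.04 in forelimb and 0.94 in forebrain, a log2 difference of 0.15 (95% interval 0.12 to 0.17). The third interval (120980001-121360000) and the eighth (123470001-124400000) had levels of 0.79 and 0.71, a difference of 0.16 (0.12 to 0.19). The second interval and the one from 121360001 to 121910000 went the other way, with 0.93 and 1.03 and a difference of -0.15 (-0.16 to -0.13). From raw counts over distance the last 2 pairs were no longer past 10%, with differences of 0.111 and -0.136, and with refitted bin factors the last was not (-0.12). These differences of whole intervals were smaller than those of the single blocks below.

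At 100 kb, 16 of 903 blocks of bin pairs (1.77%) differed by at least 25% of the lower level, or 0.32 on the log2 scale, with an adjusted p under 0.05 (two-sided exact binomial test, Benjamini-Hochberg over all 903 blocks). Of these, 12 were higher in forelimb (1.33%) and 4 were lower (0.443%). Without the bin factors the split was 7 higher and 6 lower, and 9 of the 16 blocks were called under both settings. At 50 kb, 93 of 3552 blocks (2.62%) were called, 62 higher (1.75%) and 31 lower (0.873%) in forelimb. Over all 903 blocks the log2 difference lay between -0.43 and 0.55, with its 5th and 95th percentiles at -0.19 and 0.21. The variance of bin pairs within a 100 kb block was 1.22 times that expected from counting alone.

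**Figure D1:**
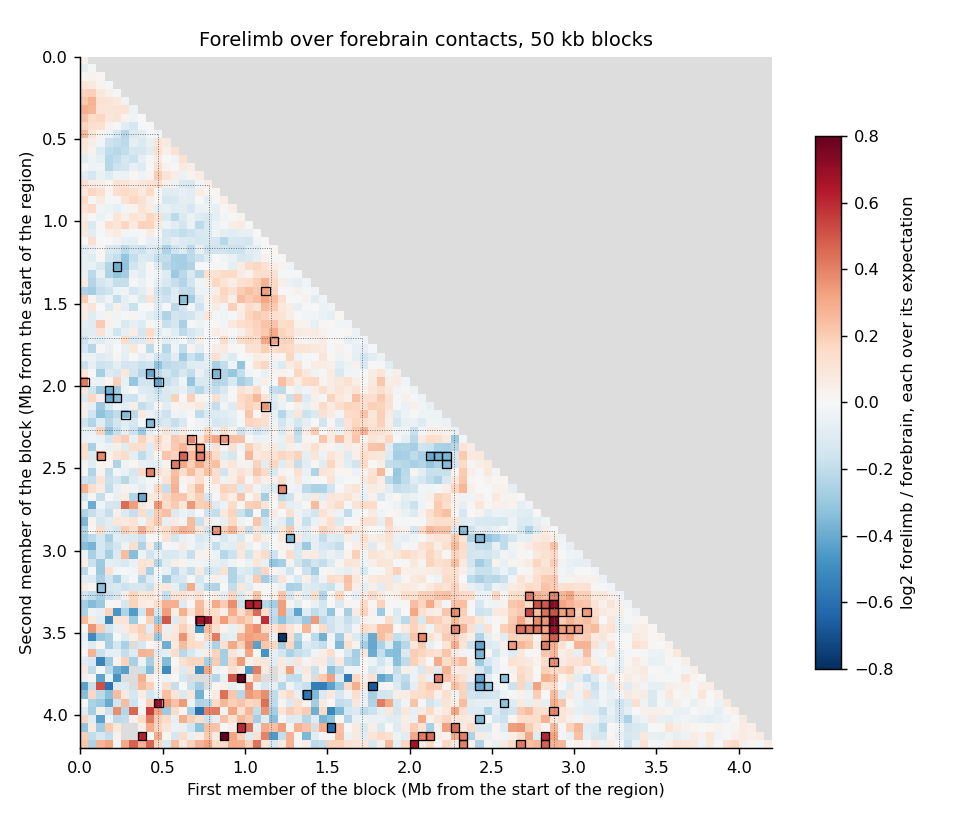
Log2 difference of forelimb over forebrain for each 50 kb block, with both axes in Mb from the start of the region; red is higher in forelimb and blue lower, black frames mark the 93 called blocks, dotted lines the 7 boundaries of the forelimb map, and grey was not plotted or not tested. The compact group of framed red blocks between 2.65 and 3.05 Mb on the horizontal axis is the patch of 20 blocks, and the row of framed blue blocks near 2.40 Mb on the vertical axis is the patch of 4.

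The 62 higher blocks at 50 kb formed 38 patches of blocks that share an edge, of which 32 were single blocks. The largest held 20 blocks and no other held more than 2. This patch joined 122850001-123250000, which spans the boundary between the sixth and seventh intervals, with 123450001-123750000, around the left end of the eighth. The 31 lower blocks formed 23 patches, the largest of 4 blocks.

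Contacts of the patch of 20 blocks numbered 14311 in forelimb and 11207 in forebrain. Its level over expectation was 0.48 in forelimb (0.475 to 0.491) and 0.35 in forebrain (0.347 to 0.360), against 0.38 for midhindbrain boundary and 0.63 for stop-cassette forelimb. Both brain maps were thus below both forelimb maps, and all 4 levels were below the average for their distance.

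The log2 difference of forelimb over forebrain was 0.44 over the whole patch and 0.33 to 0.76 over its members. Forelimb was higher in 422 of the 500 bin pairs in the patch. The members were selected for this difference, so these counts describe the patch and do not test it. Beside it, forelimb over midhindbrain boundary was 0.34, midhindbrain boundary over forebrain 0.10, and wild-type over stop-cassette forelimb -0.39; these comparisons share maps with the first. Without bin factors the patch differed by 0.36, and with bin factors refitted without pairs under 30 kb by 0.42.

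The strongest member of the patch was 123050001-123100000 with 123600001-123650000. It had 555 contacts in forelimb and 379 in forebrain. The levels were 0.40 and 0.24, a log2 difference of 0.76 (adjusted p = 1.7e-13, exact binomial test over 3552 blocks). At 100 kb the 2 largest differences of the region lay in the same patch. The block 123000001-123100000 with 123500001-123600000 had 3077 and 2302 contacts and levels of 0.44 and 0.30, a difference of 0.55 (adjusted p = 2.7e-42, exact binomial test over 903 blocks). Its neighbour with 123600001-123700000 had levels of 0.43 and 0.30 and a difference of 0.53.

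The level of a block and the difference between the maps were not independent. Among the 333 blocks of 100 kb at 100 to 900 kb, 20 had a mean level under 0.5. Of these, 19 were higher in forelimb, with a median log2 difference of 0.22. The 7 that touch the patch had a median of 0.36. The other 13 had a median of 0.13 and 12 of them were above 0. In the 75 blocks with a mean level of 1.2 or more the median was -0.01, and 35 were higher in forelimb. The forelimb map had a flatter pattern than the forebrain map, with a standard deviation of log2 levels of 0.55 against 0.59 over the 333 blocks (midhindbrain boundary 0.60, stop-cassette forelimb 0.46). The part of this contrast in the patch was not tested beyond these values.

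**Figure D2:**
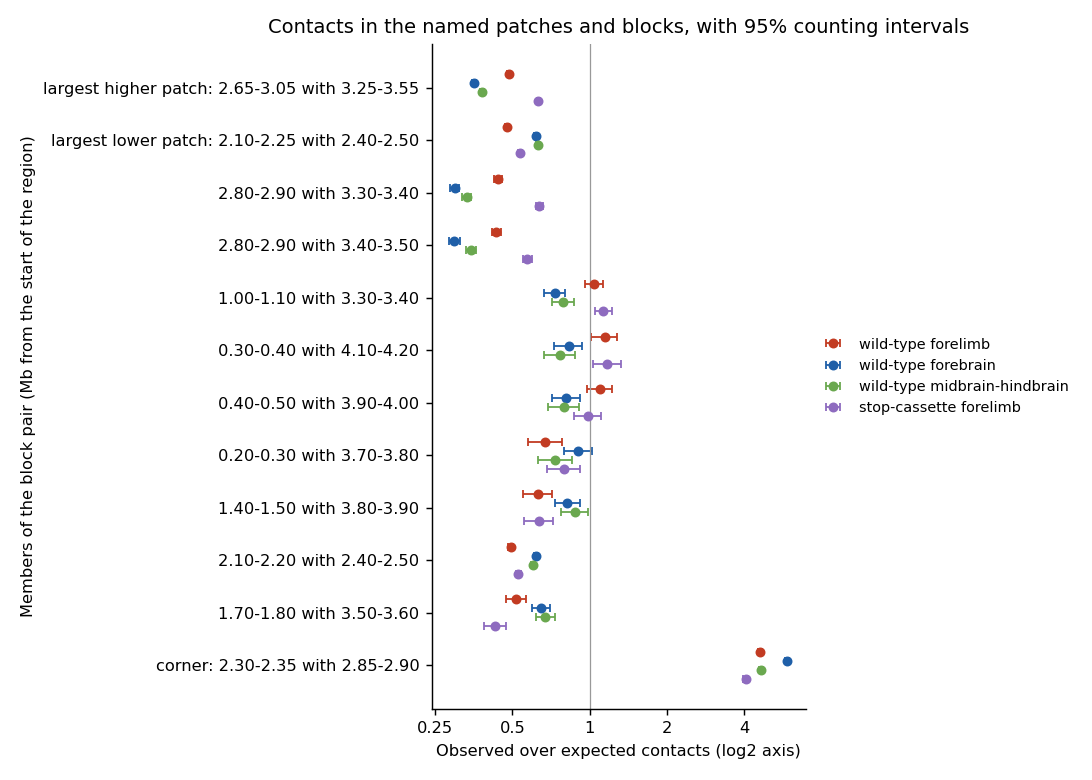
Observed over expected contacts (log2 axis) of the 2 largest patches, the 9 named blocks of 100 kb and the corner block described with the strong boundary, in each of the 4 maps, with 95% counting intervals as bars and positions in Mb from the start of the region. In the largest higher patch forelimb (0.48) and stop-cassette forelimb (0.63) lie above forebrain (0.35) and midhindbrain boundary (0.38); in the corner block forebrain (5.85) lies above the other three.

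The stretch 123000001-123100000, which contains the boundary between the sixth and seventh intervals, took part in 4 called blocks at 100 kb, all higher. The stretch 124300001-124400000, at the right end of the region, also had 4, all at over 1 Mb, and no other had more. Partners of 123000001-123100000 within 1 Mb had a root mean square log2 difference of 0.24, the largest of the 42 stretches, against 0.03 from counting. The 2 next highest values, both 0.20, were those of 123500001-123600000 and 123600001-123700000, which lie across the patch from it.

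The differences between this stretch and its near partners had opposite signs on its left and right sides. The stretch was picked from these same differences, and its partners include those of the patch. The values therefore describe it and do not test it. Of its 9 partner blocks of 50 kb from 122550001 to 123000000, all were lower in forelimb, with log2 differences of -0.17 to -0.04. All 7 partners from 123100001 to 123450000 were higher in forelimb, with a median of 0.15, and so were the 6 from 123450001 to 123750000, with a median of 0.49. The 13 partners from 123750001 to 124400000 were also all higher, with a median of 0.24. Further left the sign was not the same as next to the stretch: of the 10 partners from 121910001 to 122450000, 8 were higher in forelimb, with a median of 0.07. The higher partners to the right were not particular to this stretch. For the stretches on the left and right of the boundary between the fifth and sixth intervals, all partners from 123100001 to 124400000 were also higher. Over the same ranges their medians were smaller, at 0.11, 0.19 and 0.13 on the left of that boundary. On its right they were 0.12, 0.20 and 0.17.

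The balance of contacts up to 1 Mb to the right over those to the left also differed. For 123000001-123100000 the right side holds higher blocks of the patch, so this balance re-reads the same bin pairs and is no separate evidence. The log2 balance there was -1.04 in forelimb and -1.30 in forebrain, and it was -1.13 for midhindbrain boundary and -0.85 for the stop-cassette forelimb. The difference of 0.26 was the largest of the 36 stretches measured, where counting gives a standard deviation of 0.009. The next was at 121300001-121400000, around the boundary on the right of the third interval, with -0.37 in forelimb and -0.61 in forebrain. The midhindbrain boundary map had -0.59 there and the stop-cassette map -0.10. The third, at 122000001-122100000, differed by 0.10.

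The largest shifts to the left were smaller than the first 2 shifts to the right. The balance at 120500001-120600000 was -0.05 in forelimb and 0.11 in forebrain, a difference of -0.16. At 123500001-123600000 it was 1.06 and 1.19, a difference of -0.13, and at 122100001-122200000 it was 0.43 and 0.53, a difference of -0.098. The left side of 123500001-123600000 also holds bin pairs of the patch. In all, 5 of the 36 stretches differed by 0.1 or more.

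**Figure D3:**
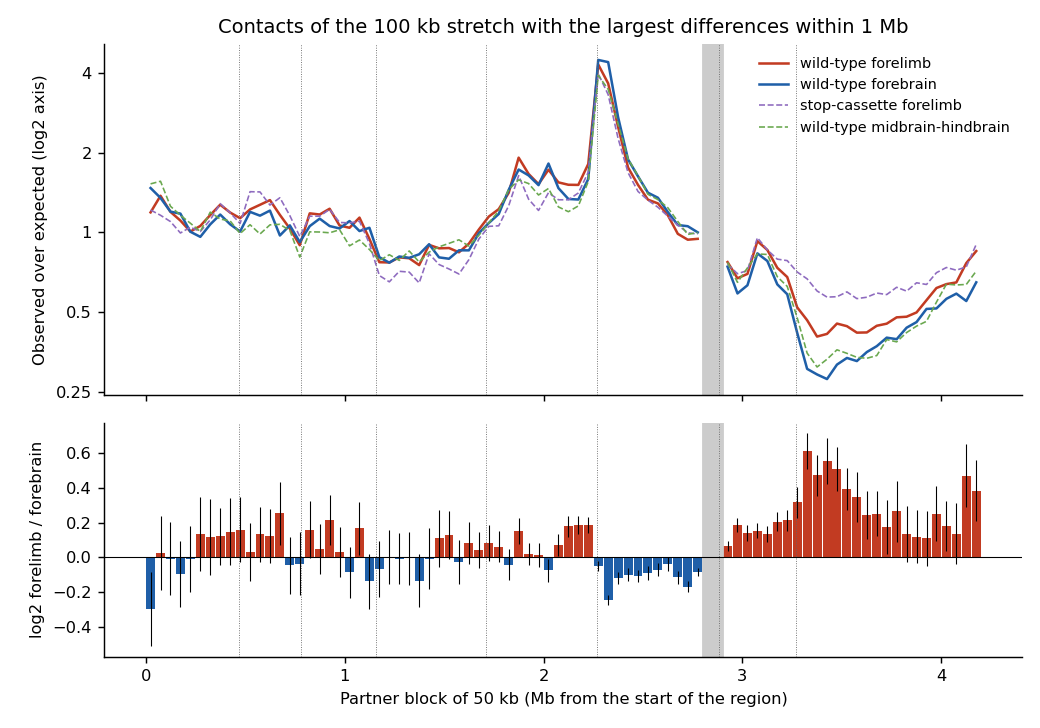
Contacts of the stretch 2.80 to 2.90 Mb from the start of the region (grey band) with every 50 kb block: observed over expected in the 4 maps (top, log2 axis) and log2 forelimb over forebrain with 95% counting intervals (bottom), dotted lines being the boundaries of the forelimb map. The bars are negative over the 9 partner blocks just left of the band (-0.17 to -0.04) and positive over all 26 to its right.

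The strong boundary at 122470001, between the fifth and sixth intervals, had the lowest insulation score of the region in both tissues, -1.05 in forelimb and -0.94 in forebrain. The largest insulation difference of the 381 edges lay just to its right, at 122500001. There the score was -0.87 in forelimb and -0.65 in forebrain, a difference of -0.22, and the other maps lay between them (midhindbrain boundary -0.71, stop-cassette forelimb -0.78). The adjoining edges 122490001 and 122510001 differed by -0.19 each. A run of 7 edges from 122470001 to 122530001 was below -0.1, where counting gives a standard deviation of 0.008. Contacts across these edges were thus relatively fewer in forelimb.

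The same difference appears as the largest patch of lower blocks, which joins 122300001-122450000 on the left of the strong boundary with 122600001-122700000 on its right. Its contacts numbered 10982 in forelimb and 13738 in forebrain, with levels of 0.48 (0.469 to 0.487) and 0.62 (0.607 to 0.628). The levels of midhindbrain boundary and stop-cassette forelimb were 0.63 and 0.54. Forelimb was higher in 3 of the 100 bin pairs, and the log2 difference was -0.37. Its main block at 100 kb, 122300001-122400000 with 122600001-122700000, held 9940 and 12391 contacts and differed by -0.33 (adjusted p = 4.8e-64, exact binomial test over 903 blocks). That difference is close to the threshold of 0.322, and missed it without bin factors (-0.320) and with refitted factors (-0.305).

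The contact between the ends of the sixth interval was far above the average for its distance in both tissues. The 100 kb to the right of the strong boundary (122470001-122570000) met 123050001-123100000 in 23919 contacts in forelimb and 31399 in forebrain. The levels were 5.04 and 6.05, a log2 difference of -0.26 (-0.28 to -0.23). Midhindbrain boundary had 5.03 and stop-cassette forelimb 4.48, so the forebrain map was the highest of the 4 and those of forelimb and midhindbrain boundary had nearly the same level.

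Within this corner, the 50 kb block 122500001-122550000 with 123050001-123100000 was called lower in forelimb, with 11397 and 16394 contacts and levels of 4.60 and 5.85 (log2 difference -0.33, adjusted p = 9.1e-78, exact binomial test over 3552 blocks). The block was chosen for mention after its values were seen. Midhindbrain boundary over forebrain was -0.32 in it. The blocks that share an edge with the called block differed by -0.12, -0.09, -0.16 and 0.10. The block 122450001-122500000 with 123100001-123150000, which touches it only at a corner, went the other way. It had levels of 4.27 and 3.68 and a log2 difference of 0.21. The other blocks that touch the called block at a corner differed by 0.11, -0.07 and -0.25.

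A single stretch of 50 kb, 122600001-122650000, took part in 9 of the 31 lower blocks, and also in 3 of the 62 higher blocks. It was picked out after the counts were seen. Of the 26 blocks of this stretch with partners 500 kb or more to its right, 2 were higher in forelimb, and the median log2 difference was -0.18. Its bins took part in nearly the same share of contacts in both maps, with log2 differences of -0.03 to 0.03. The lower block with the most contacts held 3633 and 4955 contacts with 123100001-123150000, at levels of 1.35 and 1.74. The 3 higher blocks all joined it to the left part of the region, with 120300001-120350000, 120800001-120850000 and 120900001-120950000. The lower contacts to the right extended to its neighbours. In 122650001-122700000, 3 of 25 such blocks were higher in forelimb, with a median of -0.13. In 122550001-122600000 it was 11 of 27 (median -0.07) and in 122700001-122750000 it was 8 of 24 (-0.05).

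**Figure D4:**
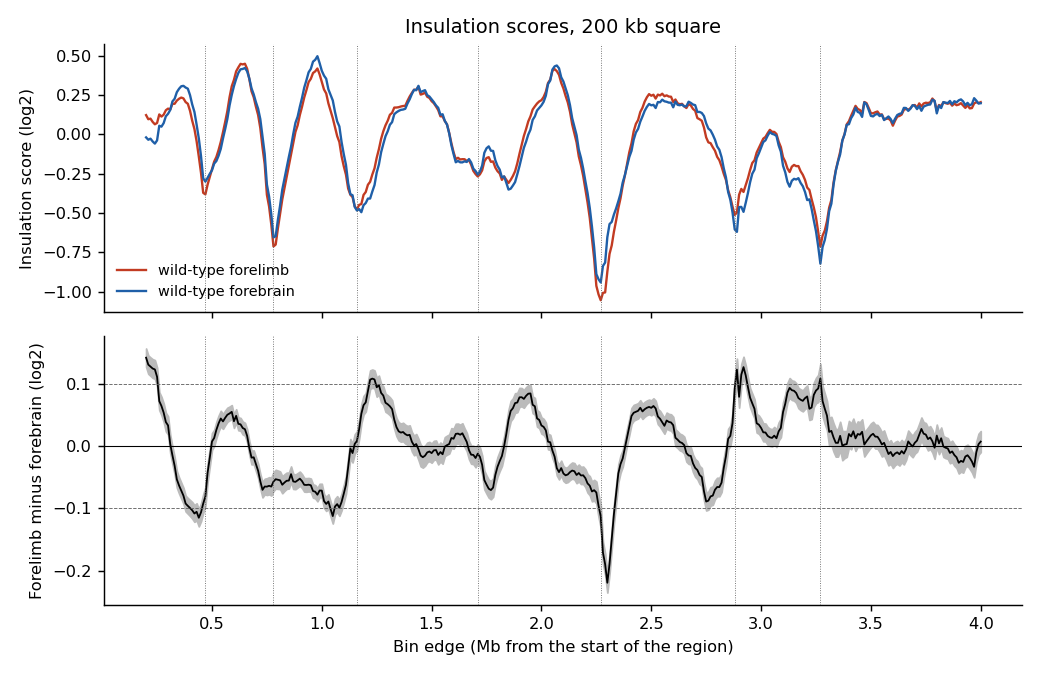
Insulation scores of the forelimb and forebrain maps (top) and their difference (bottom; black line, with a grey band of 95% counting error), by distance in Mb from the start of the region, with dashed lines at -0.1 and 0.1 and dotted lines at the boundaries of the forelimb map. The deepest point of the difference, -0.22, lies just right of the strong boundary at 2.27 Mb, and the difference is above 0 at the boundaries at 2.88 and 3.27 Mb.

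At the 2 boundaries further right the scores were less negative in forelimb. At 123080001, the boundary of the forelimb map, the score was -0.51 in forelimb and -0.60 in forebrain, a difference below 0.1. At the next edge, 123090001, where the forebrain map has its boundary, it was -0.50 and -0.62. At 123470001 it was -0.71 and -0.82. At 123090001 and 123470001 midhindbrain boundary had -0.52 and -0.78, and stop-cassette forelimb -0.44 and -0.69. The 3 edges with the largest positive differences lay at the left end of the region, from 120400001 (0.12 in forelimb, -0.02 in forebrain, difference 0.14) to 120420001. With a square of 100 kb all 3 differed by 0.07, below 0.1. In all, 28 of 381 edges differed by 0.1 or more, 14 in each direction, against 11 between midhindbrain boundary and forebrain. Between forelimb and midhindbrain boundary 47 edges did so, and between wild-type and stop-cassette forelimb 79. With raw in place of balanced signal 113 edges did so between forelimb and forebrain.

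The other 10 called blocks of 100 kb joined stretches 1 Mb or more apart and held fewer contacts. The block 121200001-121300000 with 123500001-123600000, between the third and eighth intervals, had 599 contacts in forelimb and 440 in forebrain, levels of 1.04 and 0.73, and a log2 difference of 0.50 (adjusted p = 2.1e-07, exact binomial test). The blocks 120500001-120600000 with 124300001-124400000 and 120600001-120700000 with 124100001-124200000 were higher in forelimb by 0.46 and 0.43, with 297 and 317 forelimb contacts. They join the far ends of the region, where each block rests on 256 to 317 contacts per map.

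Among the lower blocks at long range, 120400001-120500000 with 123900001-124000000 had 176 contacts in forelimb and 249 in forebrain and a log2 difference of -0.43 (adjusted p = 0.0085, exact binomial test). The blocks 121600001-121700000 with 124000001-124100000 and 121900001-122000000 with 123700001-123800000 differed by -0.38 and -0.32. From the balanced signal neither was called, with differences of -0.307 and -0.321. The largest difference at 50 kb among the named lower blocks, -0.78, was that of 121400001-121450000 with 123700001-123750000, on 59 and 106 contacts.

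The remaining named patches at 50 kb held 2 or 3 blocks each. Higher in forelimb were 121200001-121300000 with 123500001-123550000 (log2 difference 0.63), 123000001-123050000 with 124300001-124400000 (0.54), 122250001-122350000 with 124300001-124350000 (0.43) and 120900001-120950000 with 122550001-122650000 (0.38). Lower were 122600001-122700000 with 123950001-124050000 (-0.38), 120350001-120450000 with 122200001-122300000 (-0.37) and 122600001-122650000 with 123750001-123850000 (-0.39). In the third of these higher patches, midhindbrain boundary (level 1.27) lay near forelimb (1.36), and stop-cassette forelimb (1.1) near forebrain (1.01). In the last of the lower patches stop-cassette forelimb (0.74) was also nearer to forebrain (0.80) than to forelimb (0.61).

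By distance, forelimb contacts were more frequent at 1010 to 1500 kb, with a log2 difference of 0.07 per contact of 30 kb or more, and less frequent at 3010 to 4190 kb, with -0.11. Within each distance the spread of differences was larger at close range than counting gives. Over the 333 blocks of 100 kb at 100 to 900 kb the standard deviation of log2 forelimb over forebrain was 0.12, against a median counting error of 0.02. In this range 6 blocks were called between forelimb and forebrain. Between midhindbrain boundary and forebrain, which share the forebrain map, the standard deviation was 0.10 and 1 block was called. At 1000 to 4100 kb the counts were 10 and 26 of 528 blocks (over all distances, 2.99% of blocks were called between midhindbrain boundary and forebrain). The call counts therefore did not order these comparisons in the same way at both ranges. Between wild-type and stop-cassette forelimb, which differ in genotype, 23 of the 333 and 56 of the 528 blocks were called. Their standard deviation at 100 to 900 kb was 0.17. In these measures the wild-type and stop-cassette forelimb maps thus differed more than the forelimb and forebrain maps did. Beside genotype, the 2 forelimb maps differ in the CD1 tag of the titles, which only the wild-type forelimb libraries carry. They also differ in the number of libraries (3 and 2) and in the share of contacts inside a single bin (18.9% and 25.8%). The tag and this share also separate wild-type forelimb from forebrain. These cannot be told apart from genotype or tissue here.

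The stop-cassette forelimb and midhindbrain boundary maps are a second pair of limb and brain that shares no library with the first. Their log2 difference was compared with that of forelimb over forebrain over the 333 blocks at 100 to 900 kb. Pearson's r was 0.70 and Spearman's rho 0.64, and 248 blocks had the same sign. Without the 6 called blocks r was 0.65. With a straight line on the mean level taken out of each difference it was 0.71. Such a line need not take out a difference that lies mainly in blocks of the lowest levels. At 1000 to 1900 kb r was 0.27 over 275 blocks. The points share the 4.2 Mb region, the bins and the distances. The second pair differs in genotype as well as in tissue, and 25.4% of its blocks were called, 13.3% higher and 12.1% lower.

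Within 1 Mb, all 5 higher blocks were also called higher in stop-cassette forelimb over midhindbrain boundary, where 46 of all 333 blocks at 100 to 900 kb were. These 5 blocks adjoin one another and overlap the range of the patch of 20 blocks, so they are not separate agreements. The single lower block was below 0 there (-0.19) and was not called. Over all distances, 11 of the 12 higher blocks were above 0 in the second pair and 7 were called higher there. Of the 4 lower blocks, 3 were below 0 and 2 were called lower. Of all 903 blocks, 599 had the same sign in both pairs. The patch of 20 blocks differed by 0.73 in that pair, with all 20 members above 0. Blocks of low level elsewhere were also higher in that pair. Of the 20 blocks of 100 kb under 0.5, the 13 not touching the patch had a median of 0.47 there. The 7 touching it had 0.71. Over the 333 blocks the difference of that pair had an r of -0.58 with the mean log2 level (-0.28 in the first pair). The part of the level in the patch's difference was not tested. The patch of 4 lower blocks differed by -0.23. For the stretch 122600001-122650000, 22 of its 26 blocks to the right were below 0. Such counts varied widely along the region in that pair, so this one is not particular to the stretch. They were 36 of 36 for 122100001-122150000, 34 of 34 for 122200001-122250000, 17 of 25 for 122650001-122700000 and 0 of 21 for 122850001-122900000.

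**Figure D5:**
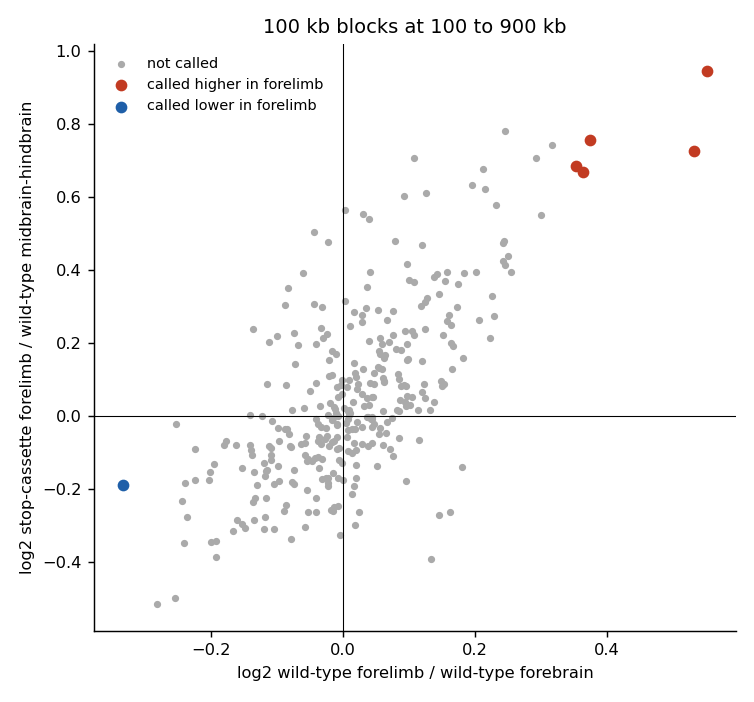
Log2 difference of stop-cassette forelimb over midhindbrain boundary (vertical) against wild-type forelimb over wild-type forebrain (horizontal) for the 333 blocks of 100 kb at 100 to 900 kb; points are blocks, coloured where called in the horizontal comparison. The 5 higher blocks lie at the upper right, the 1 lower block at the left below 0, and r over all points is 0.70.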

How the data were processed

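Capture Hi-C maps of 4 groups (11 libraries, merged by the authors into 1 map per group) were deposited as raw contact counts and as Knight-Ruiz balanced signal per pair of 10 kb bins, per the file names given in the labels, which also name a mapping quality filter of 30. The submitters' processing notes name the mm9 build, Bowtie2 2.3.4.1 and Juicer 1.7.6, with no role given. The forelimb map held 8823849 contacts and the forebrain map 9489482.

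The ratio of deposited count to deposited signal gave 1 factor per bin by least squares. The expected count of a bin pair was its product of bin factors, scaled so that each distance kept its total. Contacts were summed in blocks of 100 and 50 kb with at least 100 contacts over both maps. The share of forelimb was tested against its expected share with a two-sided exact binomial test with Benjamini-Hochberg adjustment (scipy 1.17.1, numpy 2.4.6, Python 3.11.15), and called blocks had an adjusted p under 0.05 and levels at least 25% apart (0.5 contacts added per map). With merged maps this tests reads, not tissues. The tests were tested on simulated data. The simulated counts varied by counting error only, which does not cover variation between libraries.

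Named items were the 5 highest and 5 lowest called blocks of 100 kb (4 were lower), the 5 largest patches at 50 kb in each direction, and the 3 largest insulation and balance differences in each direction. Members and lists were chosen with earlier results of these data known. Gene names and their order are from RefSeq (GRCm38.p6). Alternatives were no bin factors, other distance limits, folds, minimum counts and grids, inflated variance, balanced signal, other insulation squares, and bin factors refitted without pairs under 30 kb.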

Additional observations from a re-analysis of the deposited data

How the results depend on the processing

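The number of called blocks of 100 kb was 16. It became 6 with pairs of at most 1 Mb, 0 at a threshold of 50% and 78 at 15%. On a grid shifted by 50 kb, whose blocks are other blocks, it was 6, with 6 higher and 0 lower in forelimb. The number at 50 kb was 93, and became 37 with pairs of at most 1 Mb (36 of them among the 93), 16 at 50% and 277 at 15%. The pairs of intervals past 10% numbered 3, and 1 from raw counts over distance. With raw counts 113 insulation edges differed by 0.1 or more against 28, and 8 stretches in the balance of contacts against 5. The r with the maps that share no library was 0.63 at 50 kb against 0.70. The other alternatives left these counts within 1.5 times, and none turned the direction of a named block, interval pair or edge. Of the 4 lower blocks of 100 kb, 3 lost the call under 1 or 2 alternatives. Without bin factors 9 of the 16 and 61 of the 93 blocks were called again. The refitted bin factors and the alternatives to r were chosen after seeing the data. No paired analysis was possible because each group is 1 merged map without replicates, and no library could be left out for the same reason. The profiles at gene starts were not run, because no annotation of the maps' build was used. At over 2000 kb a 100 kb block held a median of 857 contacts over both maps, which limits what can be called there.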
